A study of Homo sapiens with 4 samples.

Results

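The NADPH oxidase genes CYBB, CYBA, NCF4, RAC1, RAC2, NOX4, NOX5 and DUOX1 were followed in SeAx, a cell line of Sézary syndrome, the leukaemic form of cutaneous T-cell lymphoma. All probe sets that the platform annotation assigns to 1 of these 8 gene symbols alone were taken, which gave 28 of the 49293 probe sets tested, and 8 of 18244 genes. RNA of 2 control samples and of 2 samples carrying a lentiviral vector for miR-124, a microRNA that represses its target mRNAs, had been hybridized to 4 PrimeView arrays (Affymetrix). By the study's methods, transduced cells were selected in puromycin, and its text calls the control cells non-transduced, so effects of miR-124, of the vector and of the selection cannot be told apart. Whether the samples of a condition were grown separately is not given in the sources used here, so p-values cover only the spread between these arrays, which may be technical. Levels are given as log2 signals of single probe sets, a probe set being the group of short probes that reads 1 transcript or gene, and levels of different genes cannot be set against each other.

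NADPH oxidases are membrane enzymes that pass electrons from NADPH to oxygen and so make superoxide or hydrogen peroxide. In the oxidase of phagocytes, CYBB is the catalytic subunit and CYBA the membrane partner that stabilizes it, and cytosolic subunits such as NCF4 join them on activation together with a GTPase, RAC1 or RAC2. NOX4, NOX5 and DUOX1 are other catalytic subunits of the family: NOX4 works with CYBA and needs no cytosolic activator, while NOX5 and DUOX1 are activated by calcium. Lymphocytes express the phagocyte subunits at lower levels than phagocytes do, and RAC2 is largely confined to blood cells.

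The arrays carry 23 background probe sets, graded by the number of G and C bases in their probes from 3 to 25. Their signal ran from 2.97 at the lowest number to 9.64 at the highest, with a small step down between 23 and 24, and the widest range of a single one of them over the 4 arrays was 0.10. The mean over the 23 was 5.18 on both control arrays, and 5.22 and 5.23 on the miR-124 arrays. The base composition of the member probes was not used here. A level anywhere within the range of the background values may therefore lie above the background of its own probes or not. A further set of 100 control probe sets, which match synthetic ERCC RNAs, had medians of 4.09 to 4.15 and a 95th percentile of 5.29 to 5.36 per array. This second reference was added after the values had been seen, and the sources used here do not say whether ERCC RNA had been added to the samples.

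**Figure D1:**
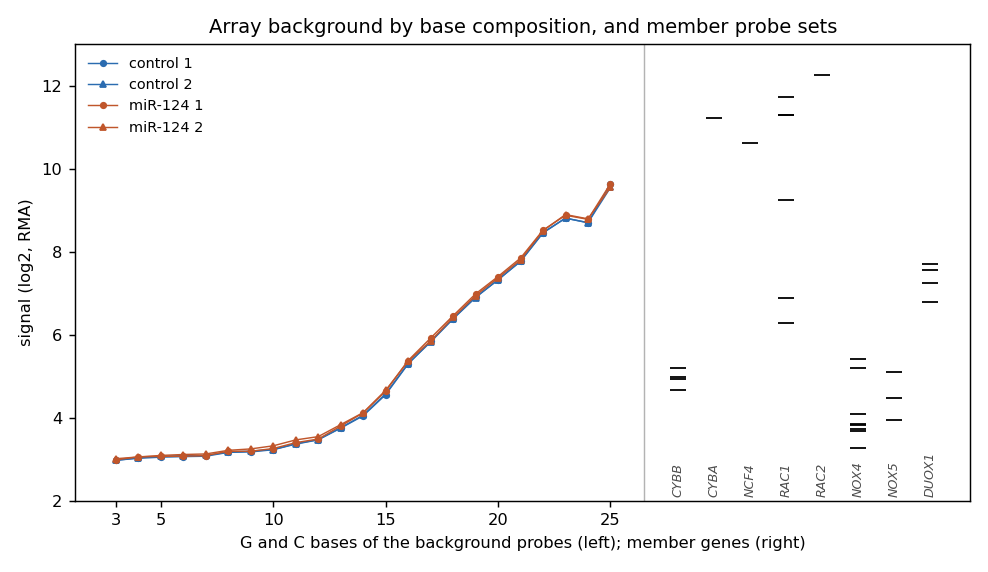
Left, log2 signal of the 23 background probe sets (vertical axis) against the number of G and C bases in their probes, 1 line per array. Right, the mean signal over the 4 arrays of each of the 28 member probe sets as a dash, by gene on the same vertical axis. The background climbs from 2.97 to 9.64, the dashes of CYBA, NCF4, RAC2 and 3 of the 6 of RAC1 lie above all of it, and those of DUOX1 lie inside its range.

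By Affymetrix naming, a suffix with s or x marks a probe set whose probes can match other transcripts, which applies to 11 of the 28, namely 4 of RAC1, 4 of NOX4, the 1 of RAC2 and 1 each of CYBB and DUOX1. Among them are the brightest NOX4 probe set and the CYBB probe set with the largest difference.

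Set against the array background, the 8 genes divided in the same way in both conditions. CYBA, NCF4, RAC2 and 3 of the 6 RAC1 probe sets, 6 probe sets in all, lay above even the highest background probe set on all 4 arrays. At the other end, 10 of the 28 probe sets lay under the mean background on all 4 arrays, and these were 6 of 8 for NOX4, all 3 for NOX5 and 1 of 4 for CYBB. In all, 14 probe sets exceeded the mean background on every array, and 13 exceeded the ERCC reference on every array.

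**Figure D2:**
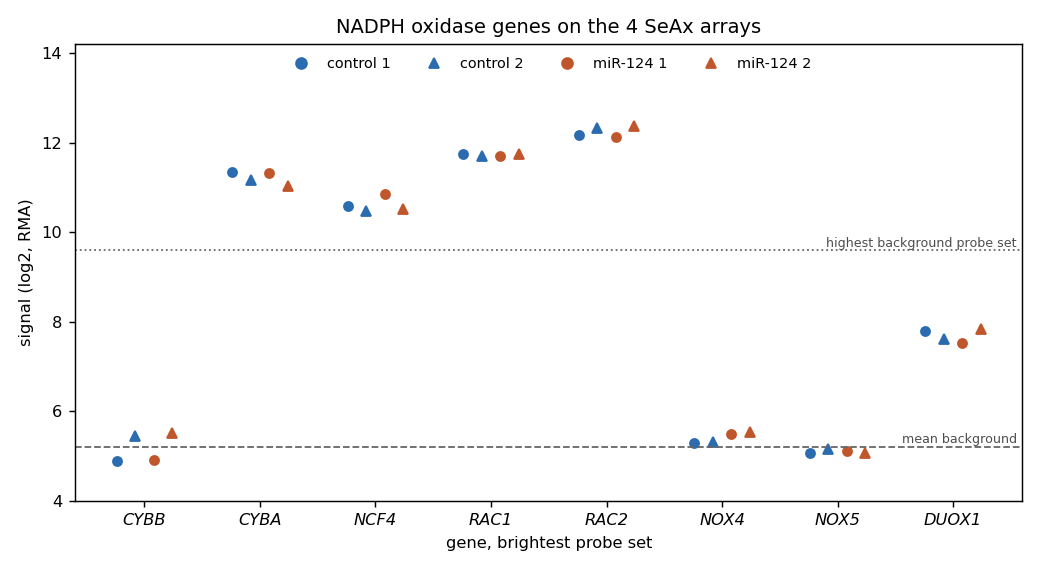
Log2 signal (vertical axis) of the brightest probe set of each gene on each array, with circles for arrays numbered 1 and triangles for arrays numbered 2, blue for control and orange for miR-124. The dashed line is the mean background and the dotted line the highest background probe set, each averaged over the 4 arrays. CYBA, NCF4, RAC1 and RAC2 sit above both lines in both conditions, CYBB, NOX4 and NOX5 lie at the dashed line, and DUOX1 lies between the lines.

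The proximal promoters of CYBB and CYBA, the paired membrane subunits of the phagocyte oxidase, are shown because the first gene lay at the mean background and the second above every background probe set. Each is the 250 bases before the RefSeq start in GRCh38.p14, 5′ to 3′ on the strand of the gene, with capitals for GAGGAA (a core read by ETS factors such as SPI1), CCAAT and GGGCGG (the GC box) on either strand. CYBB lies at chrX:37779809-37780058 on the plus strand and CYBA at chr16:88651054-88651303 on the minus strand.
CYBB: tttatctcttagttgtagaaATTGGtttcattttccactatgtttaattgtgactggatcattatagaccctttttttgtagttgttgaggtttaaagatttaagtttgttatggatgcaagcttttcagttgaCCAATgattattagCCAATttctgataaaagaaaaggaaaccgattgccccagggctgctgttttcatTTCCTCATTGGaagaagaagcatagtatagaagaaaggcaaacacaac
CYBA: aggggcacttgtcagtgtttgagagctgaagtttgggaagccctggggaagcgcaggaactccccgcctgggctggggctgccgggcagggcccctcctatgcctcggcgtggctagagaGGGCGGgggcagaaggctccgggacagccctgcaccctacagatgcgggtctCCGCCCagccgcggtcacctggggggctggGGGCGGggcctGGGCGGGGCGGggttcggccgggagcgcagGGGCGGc
The CYBB window held 34.0% G and C bases and 1 CpG dinucleotide, with 4 matches to CCAAT, 1 to GAGGAA and 0 to GGGCGG, and 1 of the CCAAT matches directly follows the GAGGAA match without overlap. The CYBA window held 73.6% G and C bases and 18 CpG, with 6 matches to GGGCGG and 0 to the other motifs, and one pair of these overlaps by a base. Over the 35116 promoter windows of the same length in the table, the median was 11 CpG, and 23.6% held GAGGAA, 32.0% held CCAAT and 42.6% held GGGCGG. Of the 8 genes, 5 had a window among these. The 3 NOX4 windows held 23, 1 and 2 CpG, that of DUOX1 held 30 and that of NOX5 held 0. A match is only a description of the letters in a window, and a link between promoter sequence and level was not tested.

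On its brightest probe set CYBB, the catalytic subunit of the phagocyte oxidase, read near the mean of the background probe sets in both conditions. Whether CYBB lies above the background of its own probes was not tested. Its brightest probe set read 4.89 and 5.45 in control cells and 4.90 and 5.52 in miR-124-transduced cells. Both conditions held 1 array under the mean background and 1 above it, so the groups overlapped. The log2 difference, miR-124 minus control, was 0.04 (standard error 0.29, 95% interval -0.72 to 0.81, unadjusted p = 0.88 from limma). CYBB is encoded on chromosome X and was measured by 4 probe sets, the other 3 of which had lower mean signals. The probe set 11758263_s_at read 4.45 and 6.25 in control cells and 4.17 and 5.07 in miR-124-transduced cells. Only control 2 was above the mean background on it, and the value of miR-124 2 lay between those of the controls. Its log2 difference of -0.73 was the largest in size among the 28 probe sets, with a standard error of 0.67, a 95% interval of -2.51 to 1.05 and an unadjusted p of 0.33. This value rested on control 2: without that array the difference was 0.17, and without control 1 it was -1.63 with an unadjusted p of 0.027. The remaining 2 CYBB probe sets had log2 differences of -0.06 and -0.00.

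On 3 of the 4 CYBB probe sets, both arrays numbered 2 were above both arrays numbered 1, whatever the condition. The difference between the numbers, 2 minus 1, was 0.59, 1.35 and 0.78 on the log2 scale on these probe sets, and it took 99.2%, 71.4% and 98.8% of the variance over the 4 arrays. On the fourth, the dimmest, it was 0.04. A difference between the numbers at least as large as the 0.59 of the brightest CYBB probe set was seen in 2.30% of all genes, and the median size over genes was 0.10. The labels do not say what the number stands for, and its part in the CYBB values was not tested. A replicate block takes the number as a second term. With it, 11758263_s_at passed the study's threshold (p under 0.05 and over 1.5-fold) as lower (unadjusted p = 0.025 from limma). Each condition holds 1 array of each number, so the block alters the spread and the p but no log2 difference. The CYBB value at gene level is therefore 0.04 in both fits.

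**Figure D3:**
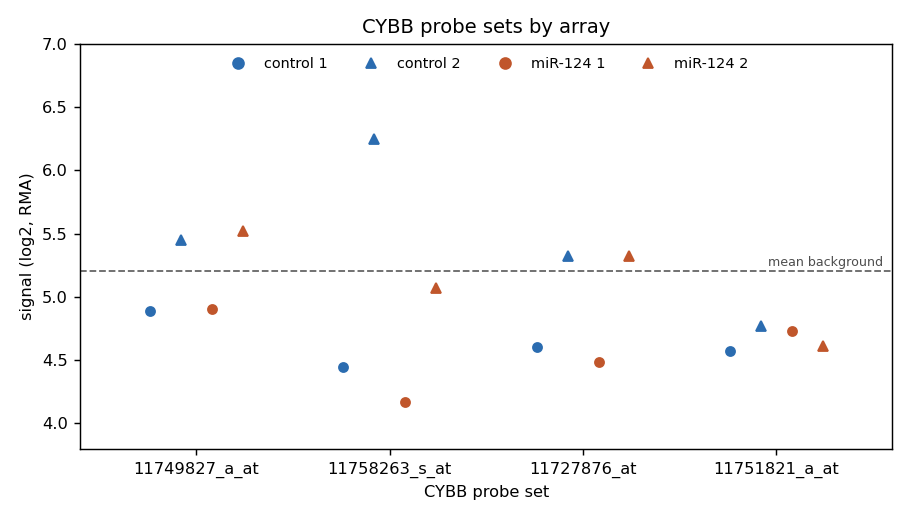
Log2 signal (vertical axis) of the 4 CYBB probe sets on each array, ordered from the brightest mean to the dimmest, with circles for arrays numbered 1, triangles for arrays numbered 2, blue for control and orange for miR-124. The dashed line is the mean background. On 3 probe sets both triangles lie above both circles, and control 2 at 6.25 on 11758263_s_at stands apart from the other values.

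CYBA, the membrane partner of CYBB and of NOX4, was measured by 1 probe set. It read 11.33 and 11.16 in control cells and 11.32 and 11.02 in miR-124-transduced cells. The lower miR-124 array was under both controls and the higher lay between them, so the groups overlapped. The log2 difference was -0.07 (standard error 0.14, 95% interval -0.45 to 0.30, unadjusted p = 0.63 from limma).

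NCF4, the cytosolic subunit that binds a phosphoinositide of endosomal and phagosomal membranes, was also measured by 1 probe set. It read 10.59 and 10.47 in control cells and 10.85 and 10.52 in miR-124-transduced cells. Only miR-124 1 was above both controls. The log2 difference was 0.15 (standard error 0.14, 95% interval -0.22 to 0.53, unadjusted p = 0.34 from limma), and without miR-124 1 it was -0.01.

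RAC2, the GTPase of blood cells, read 12.16 and 12.32 in control cells and 12.13 and 12.37 in miR-124-transduced cells on its single probe set. The miR-124 arrays lay just outside the range of the controls on both sides. The log2 difference was 0.00 (standard error 0.13, 95% interval -0.33 to 0.34, unadjusted p = 0.97 from limma). RAC1, the GTPase found in most cell types, read 11.75 and 11.71 in control cells and 11.69 and 11.73 in miR-124-transduced cells on the brightest of its 6 probe sets. Its groups overlapped, and the log2 difference was -0.02 (standard error 0.08, 95% interval -0.24 to 0.20, unadjusted p = 0.85 from limma).

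The 6 RAC1 probe sets had values of 6.20 to 11.75. On 3 of them both miR-124 arrays were under both controls, with log2 differences of -0.10, -0.13 and -0.25, none with an unadjusted p under 0.05. The last, 11725303_a_at, was singled out after its values were seen. It read 9.47 and 9.27 in control cells and 9.26 and 8.99 in miR-124-transduced cells (standard error 0.14, 95% interval -0.61 to 0.12, unadjusted p = 0.14 from limma). The other 3 had differences of -0.02 to 0.05. The probe sets 11753603_s_at and 11725304_s_at both read 11.35 on each control array, so they may not be separate measurements.

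NOX4, a catalytic subunit that is active without cytosolic partners, was measured by 8 probe sets with values of 3.21 to 5.53. Its brightest, 11745103_x_at, read 5.29 and 5.31 in control cells and 5.50 and 5.53 in miR-124-transduced cells. Both miR-124 arrays were above both controls, and all 4 values lay within the range of the background probe sets and close to their mean of 5.18 to 5.23. The log2 difference was 0.21 (standard error 0.08), or 1.16-fold, with a 95% interval of -0.00 to 0.43 and an unadjusted p of 0.053 from limma over all probe sets. In the fit over genes, where each gene is its brightest probe set, the unadjusted p was 0.048 and the Benjamini-Hochberg adjusted p was 0.89. Over the alternatives the unadjusted p in that fit ran from 0.035 to 0.36, and the adjusted p from 0.34 to 1.00. The other 7 probe sets had log2 differences of -0.06 to 0.17, so that 6 of the 8 were higher, and averaging the 8 gave a NOX4 difference of 0.07. Of the 14428 other genes above the mean background on all arrays, 568 had a Pearson r above 0.95 with NOX4 over the 4 arrays, which are few points. The 3 closest were GPATCH4, ATPAF1 and ZNF774, each at an r of 1.00.

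NOX5, the calcium-activated member that works without CYBA, was measured by 3 probe sets, all under the mean background on every array. The brightest read 5.07 and 5.16 in control cells and 5.11 and 5.08 in miR-124-transduced cells, and its groups overlapped (log2 difference -0.02, standard error 0.09, unadjusted p = 0.85 from limma). The other 2 probe sets had log2 differences of 0.23 and -0.07. No fold is given for NOX5, as both conditions lie under the mean background.

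DUOX1, a calcium-activated oxidase with a peroxidase-like domain, had values of 6.64 to 7.84 on 4 probe sets. All 4 exceeded the mean background on every array, and none exceeded the highest background value on any. The brightest read 7.79 and 7.61 in control cells and 7.52 and 7.84 in miR-124-transduced cells. The control values lay inside the range of the miR-124 arrays. Its log2 difference was -0.02 (standard error 0.15, 95% interval -0.41 to 0.37, unadjusted p = 0.89 from limma). The others differed by -0.11, 0.02 and -0.04, and on 1 of them, with 7.59 and 7.63 in control cells and 7.51 and 7.50 in miR-124-transduced cells, the groups did not overlap (unadjusted p = 0.26 from limma).

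Across the 8 genes, no difference between miR-124-transduced and control cells passed the threshold of the study in the main fit made here. That threshold asks for p under 0.05 before adjustment together with a change of more than 1.5-fold. The study's text, by contrast, names CYBB among the genes that were lower with miR-124. Why the 2 analyses differ for CYBB was not tested. Of the 28 probe sets 0 passed, beside 0.185% of all probe sets (91 of 49293), and of the 8 genes 0 passed, beside 0.153% of all genes (28 of 18244). An unadjusted p under 0.05 was found for 0 of the 28 probe sets, beside 4.73% of all, and for 1 of the 8 genes, NOX4, beside 4.46% of all. With shares this small, a count of 0 among 28 says little about these genes in particular. No probe set on the arrays reached an adjusted p under 0.05 in limma, and the lowest adjusted p was 0.88. The conditions did not overlap on 9 of the 28 probe sets, beside 34.7% of all probe sets. Of the 28 differences 13 were above 0 and 15 below, and their median was -0.00 on the log2 scale. By gene, 4 were higher and 4 lower, and the median was -0.01, beside 0.01 over all genes.

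The precision differed between the members. For 13 of the 14 probe sets above the mean background on every array, the 95% interval from limma lay wholly inside a 1.5-fold change in either direction (0.58 on the log2 scale), the exception being 11725303_a_at of RAC1, and none of the 14 differed by more than 1.19-fold. Of the 14, only 6 also lay above the highest background probe set on every array. For the rest, whether a narrow interval bounds a change of the gene was not tested. The intervals of the 10 probe sets under the mean background on every array were also this narrow, but at that level they set no bound on a change of the gene. For 3 of the 4 CYBB probe sets the interval reached past 1.5-fold in both directions. Exact permutation of 2 arrays against 2 cannot give a two-sided p under 0.33 for any single value.

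**Figure D4:**
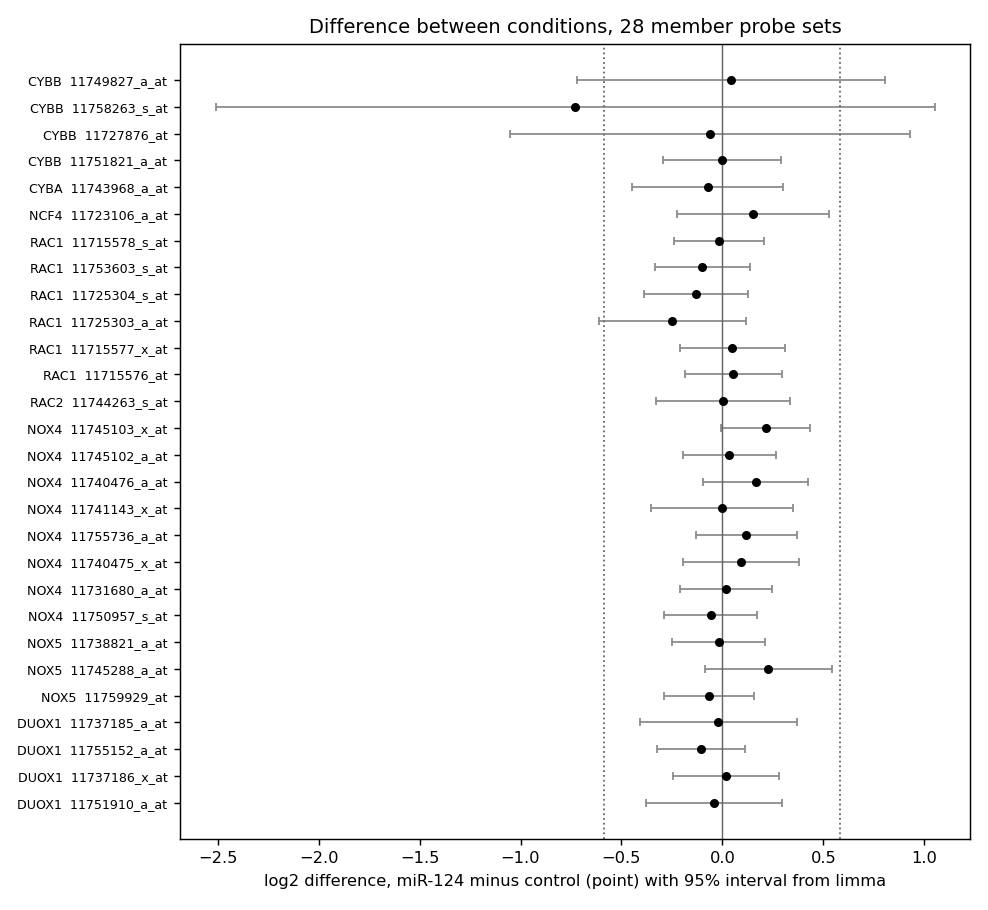
Log2 difference, miR-124 minus control (horizontal axis), of each of the 28 probe sets, as a point with its 95% interval from limma. The solid line is no difference and the dotted lines are a 1.5-fold change. The intervals of 3 CYBB probe sets reach past both dotted lines, that of the RAC1 probe set 11725303_a_at past the lower line, and all others lie between the lines.

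Among the other genes of the oxidase complexes, CYBC1, a chaperone of the heterodimer of CYBB and CYBA, was above all background probe sets. It read 10.60 and 10.69 in control cells and 10.88 and 10.93 in miR-124-transduced cells. Both miR-124 arrays were above both controls, with a log2 difference of 0.26 (standard error 0.09, 1.19-fold, unadjusted p = 0.035 from limma), which is under the fold of the threshold. NOXO1 and NOXA1, the organizer and the activator of the NOX1 oxidase, had log2 differences of 0.05 and -0.10, DUOXA2, a maturation factor of DUOX2, one of 0.05, and RAC3 one of -0.06, all at levels of 6.86 to 7.81. NOX3 and DUOX2, catalytic subunits of the inner ear and of the thyroid, lay under the mean background on all 4 arrays, and NOX1, of the colon, on 2 of 4. Of these 8 genes, 6 were higher and 2 lower, and 0 passed the threshold. DUOXA1, the maturation factor of DUOX1, was not analysed here.

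The same held for the genes around the oxidase, none of which passed that threshold at gene level. The counts below are by gene, where 4.46% of all genes had an unadjusted p under 0.05. By probe set, such a p from limma was found for 2 of 81 among activators and RAC regulators and 0 of 69 for superoxide and peroxide removal. It was found for 2 of 54 for NADPH supply and 5 of 55 for the NRF2 and redox response, beside 4.73% of all probe sets. Of 28 activators and RAC regulators, 16 were higher and 12 lower (median log2 difference 0.02), and 0 had an unadjusted p under 0.05. The 2 of smallest p with levels above the mean background were PRKCQ, a protein kinase C of T cells, and PAK2, a kinase that RAC activates, at 0.20 and -0.30. Of 28 genes that remove superoxide and peroxide, 14 were higher and 14 lower (median -0.00), with GPX2 at -0.23 and TXN2, the mitochondrial thioredoxin, at 0.20, and 0 had an unadjusted p under 0.05. Of 17 genes that supply NADPH, 8 were higher and 9 lower (median -0.02). NNT, the mitochondrial transhydrogenase that makes NADPH, read 10.09 and 10.09 in control cells and 9.83 and 9.76 in miR-124-transduced cells. Both miR-124 arrays were under both controls, with a log2 difference of -0.30 and a standard error of 0.08. The unadjusted p of 0.018 from limma was the only one of the 17 under 0.05. TALDO1, of the pentose phosphate pathway, was at 0.18. Of 18 genes of the NRF2 and redox response, 8 were higher and 10 lower (median -0.08). OSGIN1, an oxidative stress gene induced by NRF2, read 7.36 and 7.41 in control cells and 7.64 and 7.78 in miR-124-transduced cells. Both miR-124 arrays were above both controls, with a log2 difference of 0.33 and a standard error of 0.09. Its unadjusted p from limma was 0.020, the only one of the 18 under 0.05. BACH1, a repressor of NRF2 target genes, was at -0.45 on its brightest probe set and at 0.34 on a dimmer one.

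Marker genes were read beside these values. T-cell genes were measured for 11 of 13 markers, all of them above the mean background on every array. Of these, 3 (CD3D, CD3G and CD2) were above all background probe sets on every array, ZAP70 was so on 3 of the 4 arrays, and the other 7, CD4, CD5, CD28 and LCK among them, had values inside the background range. CD3E read 5.33 and 5.34 in control cells and 5.67 and 5.82 in miR-124-transduced cells, where both arrays were higher (log2 difference 0.41, unadjusted p = 0.0078 from limma). PTPRC, the common leukocyte antigen CD45, read 8.17 and 7.63 in control cells and 7.63 and 6.91 in miR-124-transduced cells, with the largest difference of a marker in size, -0.64 (unadjusted p = 0.098 from limma). Of 12 markers of phagocytes, 8 were above the mean background on every array, CD14, CD68, CSF3R, AZU1 and SPI1 among them. CSF1R alone, at 9.81 to 10.47, was above the highest background probe set on every array. LYZ, MPO and ELANE, defining products of monocytes or granulocytes, lay under the mean background on every array. The mean level of the 12 was 6.30 on both controls, and 6.38 and 6.29 on the miR-124 arrays. Among 7 B-cell markers, 6 were above the mean background on every array and 0 were above the highest background probe set on every array. The mean level was 7.80 and 7.94 in control cells and 7.77 and 7.95 in miR-124-transduced cells. Of the 7, 2 were higher and 5 lower. BLK, a SRC-family kinase of B cells, read 9.63 and 9.81 in control cells and 10.23 and 10.26 in miR-124-transduced cells, above all background probe sets on 3 of the 4 arrays. Both miR-124 arrays were higher, with a log2 difference of 0.53 (unadjusted p = 0.0040 from limma), and a second BLK probe set was at 0.55. The part of these markers in the values of the oxidase genes was not tested. SPI1, the myeloid transcription factor that regulates CYBB, read 7.41 and 7.27 in control cells and 7.45 and 7.45 in miR-124-transduced cells (log2 difference 0.11, unadjusted p = 0.29 from limma). In bulk RNA, fewer cells of a type and less RNA per cell cannot be told apart.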

How the data were processed

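SeAx RNA was measured on Affymetrix PrimeView arrays, 2 per condition, grouped by the sample labels. The log2 values were used as deposited. Per the methods, the authors made them by RMA, that is, with background correction, quantile normalization between arrays and 1 summary per probe set. The submitters' processing notes list RMA and limma and give no version, and one methods paragraph names Agilent arrays instead. Quantile normalization gives every array the same distribution, so a change of total RNA would not show. Probe intensities were not used here.

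Of 49495 probe sets, 202 array controls were left out of the tests. The 28 probe sets with only a member's symbol in the platform annotation were taken, and all 8 gene identifiers matched a current RefSeq record. A gene was its brightest probe set. Differences were tested over all probe sets and over all genes with limma 3.58.1 in R 4.3.3 (lmFit, eBayes, condition as the only term, 2 residual degrees of freedom, with 2.58 from the prior for genes), with Benjamini-Hochberg adjustment over all of them. The fit was tested on simulated data that held independent noise and no effect of the array number. That test therefore does not cover the spread between the numbers in these arrays. With 2 arrays per condition, their number limits the precision.

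Members and gene lists were chosen with earlier results of these data known. The text names all members, the other oxidase genes, and from each list genes past the threshold and the 2 of smallest p above background. The search for promoter motifs was added after the levels had been seen. The alternatives were a replicate block, leaving out each array, a filter on dim probe sets, cyclic loess, array weights, a robust prior with a trend, averaging a gene's probe sets, an adjusted p, and other background references.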

Additional observations from a re-analysis of the deposited data

How the results depend on the processing

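No member gene passed the study's threshold under any of the alternatives run. Among the member probe sets, 0 passed in the main fit made here. With a replicate block 1 member probe set passed, 11758263_s_at of CYBB, at the same log2 difference of -0.73 as in the main fit. Without control 1, which leaves 1 control array, its log2 difference was -1.63. With the block, an unadjusted p under 0.05 was found for 3 of the 28, beside 6768 of all 49293 probe sets. The 3 were 11758263_s_at, 11725303_a_at of RAC1 and 11745103_x_at of NOX4. Over all probe sets the count past the threshold was 91 in the main fit made here and 167 with the replicate block. With 1 array left out it was 129 to 1078. At an adjusted p under 0.05 in the main fit it was 0 (2331 at an unadjusted p under 0.05). Over genes the count past the threshold was 28 in the main fit made here and 49 with the replicate block. With 1 array left out it was 33 to 340. At an adjusted p under 0.05 in the main fit it was 0 (813 at an unadjusted p under 0.05). The study's text gives more differentially expressed genes than any of these gene counts, and why was not tested. Deviations from the condition means correlated at 0.64 over all probe sets between arrays of the same number. The number took 58.0% of the variance over all probe sets and the condition 28.2%, and the main fit holds no term for the number. What the number stands for is not given in the sources used here, and why arrays of the same number deviate alike was not tested. Leaving out an array leaves 1 in that condition, whose spread is then taken from the other, and unbalances the numbers between the conditions.

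The direction of several small differences turned with 1 array left out. The log2 difference ranged from -0.039 to 0.0049 for RAC1, from -0.013 to 0.32 for NCF4, from -0.18 to 0.14 for DUOX1, from -0.061 to 0.026 for NOX5, from -0.22 to 0.078 for CYBA and from -0.11 to 0.12 for RAC2, on their brightest probe sets. For CYBB it ranged from -0.26 to 0.35 on the brightest probe set and from -1.63 to 0.17 on 11758263_s_at. NOX4 kept its direction, at 0.20 to 0.23. The number of member probe sets above the background on all 4 arrays was 14 against the mean of the background probe sets, 6 against the highest of them and 7 against their 95th percentile. Whether levels within the range of the background values, such as those of DUOX1 and CYBB, lie above the background of their own probes was not tested.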
